A study of Mus musculus with 6 samples.

Results

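The 39 *Hox* genes of the mouse were described in kidneys of a mouse model of autosomal dominant polycystic kidney disease (ADPKD). They were taken by symbol (*Hoxa*, *Hoxb*, *Hoxc* or *Hoxd* followed by a number) from a deposited table of 54721 transcripts with 23276 gene symbols, in which they occupy 82 transcripts. Where a gene has several transcripts, the most abundant of them stands for it. The table rests on RNA-Seq of total RNA from 6 whole kidneys. Of these, 3 are Pkd1F/RC SKO kidneys (genotype KspCre; Pkd1 F/RC) and 3 are Pkd1F/RC DKO kidneys, which carry miR17∼92 F/F in addition. All 6 mice thus carry the Cre recombinase KspCre, a floxed *Pkd1* allele (F) and a hypomorphic germline *Pkd1* allele (RC), and both groups are cystic models with no wild-type kidney among them. KspCre recombines in renal tubules, so stromal, vascular and immune cells of the samples keep their floxed alleles. The labels give the age as postnatal day 22 and the study as 21 days. Abundance is given as a mean over all 6 kidneys, in CPM, read counts scaled to a common library total. No value for a single kidney was used here, so no spread between mice, no depth per library and no difference between SKO and DKO kidneys is reported for any *Hox* gene. Where 2 genes are set side by side, no test of the difference was possible.

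*Hox* genes encode homeodomain transcription factors that give cells their position along the body axis. They lie in 4 clusters, and genes with the same number in different clusters are paralogs that arose by duplication of an ancestral cluster. Low numbers lie at the 3′ end of a cluster and are used at the head end of the embryo, and high numbers lie at the 5′ end and are used towards the tail. The kidney forms in the posterior trunk. The group 11 paralogs are required together for the embryonic kidney to form, where they act with EYA1 and PAX2 upstream of *Six2* and *Gdnf*, and *Hoxb7* regulatory sequence is widely used to drive transgenes in the ureteric bud and collecting duct. Because whole kidneys were sequenced, fewer cells of a type and less RNA per cell cannot be told apart.

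A broad central block of paralog groups was present in the postnatal kidney, while both ends of the clusters were low or at the bottom of the table. Of the 39 genes, 27 (69.2%) had a mean of at least 1 CPM, beside 55.9% of all gene symbols. A mean of at least 10 CPM was reached by 13 genes (33.3%), beside 32.2% of all gene symbols. Of the 27 genes, 26 belonged to groups 3 to 11 and the other was *Hoxb2*. The median over all *Hox* genes was 2.26 on the log2 CPM scale, beside 1.24 over all gene symbols. Among genes with at least 1 CPM the order was reversed, at 3.28 for *Hox* genes and 3.65 for all gene symbols. *Hoxc5* was the least abundant gene past 1 CPM, at 1.15 CPM, and *Hoxa4* the most abundant one below it, at 0.768 CPM. At the lower end, 7 genes were under 0.1 CPM.

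**Figure D1:**
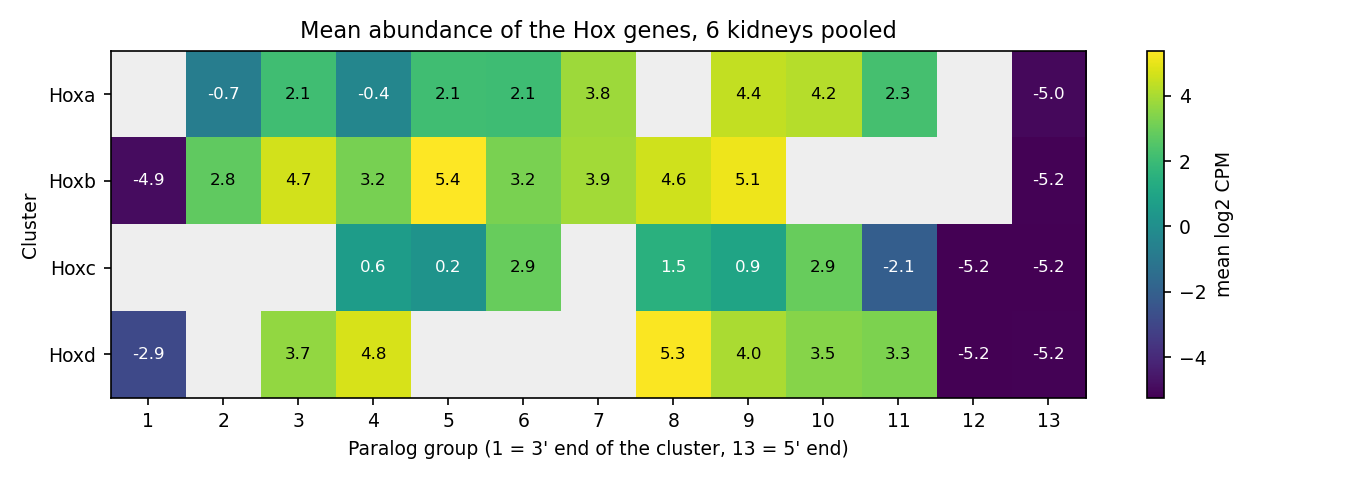
Mean abundance of the *Hox* genes (colour and number, log2 CPM, mean over 6 kidneys) by cluster (vertical axis) and paralog group (horizontal axis), with grey where no gene is shown. Values above 0, that is above 1 CPM, fill groups 3 to 11 apart from *Hoxa4* and *Hoxc11*, *Hoxb2* in group 2 is also above 0, and the 6 genes of groups 12 and 13 lie between -5.25 and -5.02.

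CPM grows with transcript length, so genes are ranked below by CPM per kilobase (kb), computed from the RefSeq mRNA of each gene and its exon length. On this scale 23 of the 39 genes lay above the median of 1.404 CPM per kb over 20167 genes. A level of at least 1 CPM per kb was reached by 23 *Hox* genes (59.0%), beside 54.0% of all genes. At least 5 CPM per kb was reached by 11 *Hox* genes (28.2%), beside 26.4% of all genes, and at least 10 CPM per kb by 4 (10.3%), beside 13.9% of all genes. The *Hox* shares at these levels were thus close to those of all genes. *Hoxb9* was highest, at 13.4 CPM per kb, above 89.6% of all genes. *Hoxa10* followed at 12.6, *Hoxd8* at 12.2 and *Hoxb7* at 11.6 CPM per kb. These 4 genes differ by less than the 1.26-fold range between the transcripts listed for *Hoxd8* alone, so their order is not resolved.

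**Figure D2:**
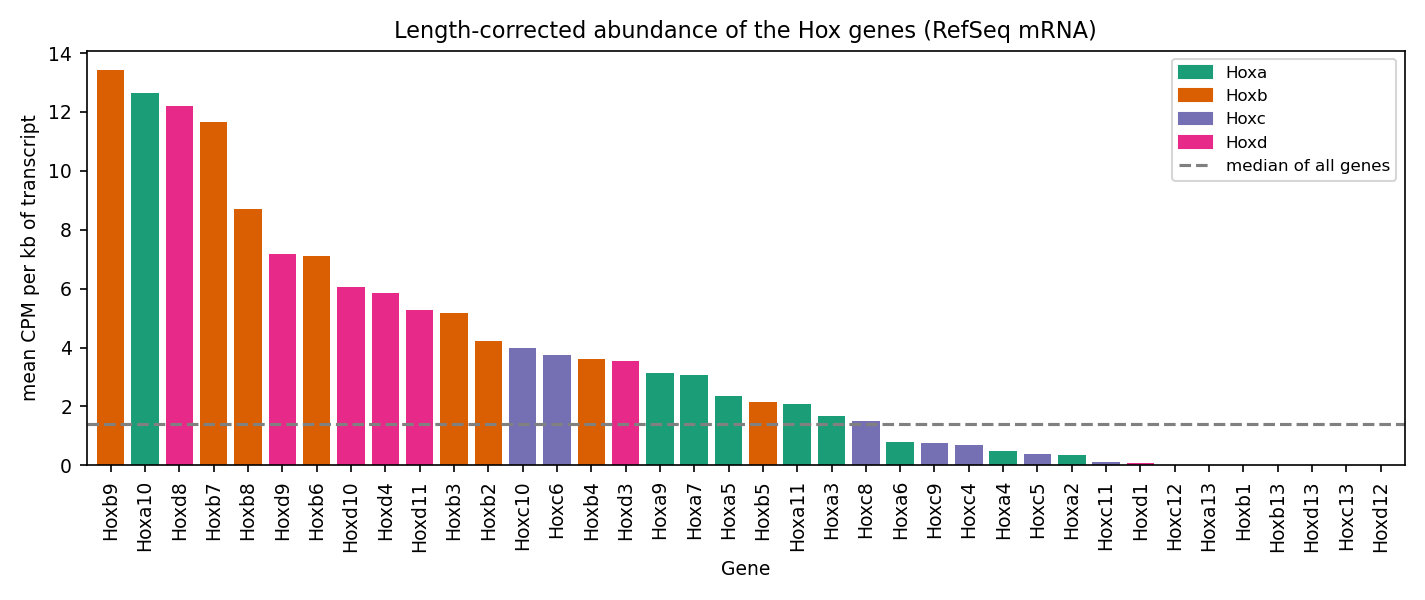
Mean CPM per kb of transcript (vertical axis, linear from 0) of the *Hox* genes (horizontal axis), from the RefSeq mRNA with the highest mean CPM and coloured by cluster. The dashed line is the median of all genes, at 1.404 CPM per kb. *Hoxb9*, *Hoxa10*, *Hoxd8* and *Hoxb7* stand above 10 CPM per kb, and the genes of groups 12 and 13 cannot be seen above the axis.

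The 5′ ends of all 4 clusters were at or next to the lowest value of the table. That value, 0.0263 CPM, is shared by 4617 transcripts and is taken here as a floor, not as a measured level. *Hoxc12*, *Hoxc13* and *Hoxd12* sat exactly on it, as did 16.6% of all gene symbols. *Hoxb13* and *Hoxd13* were listed at 0.0277 CPM and *Hoxa13* at 0.0307 CPM. The group 13 genes pattern the tail end of the trunk, with *Hoxa13* and *Hoxd13* known from digits and the urogenital outlet, *Hoxb13* from the prostate and *Hoxc13* from hair. Together the 6 genes of groups 12 and 13 held 0.0435% of the summed *Hox* CPM, a share made up of values at or next to the floor.

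The group 11 genes were unequal. *Hoxd11* had a mean of 9.71 CPM and *Hoxa11* of 4.80 CPM, while *Hoxc11* was at 0.240 CPM. Per kb these were 5.29, 2.10 and 0.119 CPM, so the *Hoxc* member lay below the other 2 on both scales. The gap between *Hoxd11* and *Hoxa11* per kb rests largely on model length. Their RefSeq mRNAs had 5.88 and 4.80 CPM, on models of 1111 and 2287 bases. The group held 3.89% of the summed *Hox* CPM. *Hoxa11* is one of the genes whose reads may be shared with an antisense gene, since 35.0% of its exon bases lie opposite *Hoxa11os* in the GENCODE annotation. The step from group 12 or 13 to the next gene was abrupt in 3 clusters. *Hoxd12* lay on the lowest value and *Hoxd11*, whose start is 7.31 kb away, at 9.71 CPM. *Hoxa13* and *Hoxa11* are 15.1 kb apart and *Hoxb13* and *Hoxb9* 77.1 kb apart. In the *Hoxc* cluster the rise was spread over *Hoxc11*, and *Hoxc10*, the next gene, was at 7.58 CPM.

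Groups 7 to 10 held the largest shares of the *Hox* total per kb, from 10.98% for group 7 to 18.2% for group 9. In CPM, group 9 took 19.5% of the summed *Hox* CPM, group 8 took 17.8%, group 10 took 9.68% and group 7 took 7.65%, while groups 3, 4 and 5 took 11.2%, 10.2% and 12.5%. In all of groups 7 to 10 each member passed 1 CPM. The 4 genes of group 9 ranged from 0.763 CPM per kb for *Hoxc9* to 13.4 for *Hoxb9*, with *Hoxd9* at 7.16 and *Hoxa9* at 3.14. *Hoxa9* and *Hoxd9* are known to act with the other group 9 genes in limb and trunk patterning, and *Hoxc9* in thoracic motor neurons. In group 8, *Hoxd8* had 12.2 and *Hoxb8* 8.69 CPM per kb, while *Hoxc8*, a gene of thoracic identity, had 1.52. Group 10 paralogs are known from the renal stroma and the lumbar skeleton. *Hoxa10* had 12.6, *Hoxd10* 6.05 and *Hoxc10* 3.97 CPM per kb. In group 7, *Hoxb7* had 11.6 and *Hoxa7* 3.08 CPM per kb. The *Hoxc* member was the lowest of its group in groups 8, 9, 10 and 11.

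Groups 3 to 6 were intermediate per kb. In group 3, *Hoxb3* had 5.16, *Hoxd3* 3.55 and *Hoxa3*, a gene of the pharyngeal arches, 1.66 CPM per kb. In group 4, *Hoxd4* had 5.85 and *Hoxb4*, known from haematopoietic stem cells, 3.60 CPM per kb, whereas *Hoxc4* had 0.682 and *Hoxa4* 0.482. In group 6 the levels were 7.10 for *Hoxb6*, 3.73 for *Hoxc6* and 0.798 for *Hoxa6*. Group 5 depended most on which transcript stood for the gene. *Hoxb5* was the most abundant *Hox* gene by its highest transcript, at 41.7 CPM, but its RefSeq mRNA had 4.10 CPM or 2.16 CPM per kb, which ranked it 20 of 39. *Hoxa5*, known for its part in lung development, had 2.34 and *Hoxc5* 0.392 CPM per kb. The share of group 5 in the summed *Hox* CPM was 12.5% with the highest transcripts and 3.45% with the RefSeq mRNAs.

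The 3′ ends of the *Hoxb* and *Hoxd* clusters were low. *Hoxd1* was at 0.134 CPM and *Hoxb1*, known for patterning the hindbrain, at 0.0336 CPM. In group 2, *Hoxa2*, which specifies the second pharyngeal arch, was at 0.601 CPM, while *Hoxb2* was at 6.89 CPM, or 4.23 CPM per kb. *Hoxb2* and *Hoxb1* start 14.1 kb apart, and the boundary of the expressed block in the *Hoxb* cluster falls between them. *Hoxb2* is also one of the genes with the most antisense annotation, with 58.5% of its exon bases opposite *Hoxb3os*.

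The 4 clusters differed in level. The *Hoxb* cluster held 43.8% of the summed *Hox* CPM with 10 genes, the *Hoxd* cluster 31.0% with 9 genes, the *Hoxa* cluster 19.1% with 11 genes and the *Hoxc* cluster 6.02% with 9 genes. Their median levels were 5.29 CPM per kb for *Hoxd*, 4.70 for *Hoxb*, 1.66 for *Hoxa* and 0.682 for *Hoxc*. No *Hoxc* gene reached 10 CPM, whereas 5 *Hoxb*, 5 *Hoxd* and 3 *Hoxa* genes did. *Hoxb* held a larger share than *Hoxd* wherever 1 value stood for a gene. The gap was narrowest with the median over a gene's transcripts, at 40.4% and 33.5%. With all transcripts of a gene summed, *Hoxd* held 42.0% and *Hoxb* 33.2%, but that sum may count a read more than once. The median level per kb was higher in *Hoxd*, so the order depends on the measure.

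The *Hoxa* cluster lies on the minus strand of chromosome 6. In mm10 coordinates the members of *Hoxb* span chr11:96194316-96368256, those of *Hoxc* chr15:102921103-103036852 and those of *Hoxd* chr2:74668310-74765142, all on the plus strand. Along each cluster the levels formed a plateau with a low end on either side, apart from *Hoxc*, whose 3′ genes *Hoxc5* and *Hoxc4* were reduced but still past 1 CPM. In *Hoxa* the 3′ side was uneven, with 2.34 CPM per kb at *Hoxa5*, 0.482 at *Hoxa4*, 1.66 at *Hoxa3* and 0.338 at *Hoxa2*. The gene model used for *Hoxa3* is long and starts upstream of *Hoxa6*, so a plot by gene start places it there rather than between *Hoxa4* and *Hoxa2*, where it ends. In *Hoxd* the plateau ran from *Hoxd11* to *Hoxd4* and *Hoxd3* without a value under 3.55 CPM per kb, and *Hoxd1* was at 0.0721. The model of *Hoxd3* is also long, starting upstream of *Hoxd4* and ending beyond it, so a plot by gene start places it before *Hoxd4*. The start of *Hoxd1* lies 41.0 kb beyond that of *Hoxd4*, and *Hoxd3* ends between these starts. Neighbouring genes could differ severalfold. *Hoxc6* was 9.51-fold higher per kb than *Hoxc5*, whose start is 4.24 kb away, and *Hoxa10* was 6.03-fold higher than *Hoxa11*, 4.96 kb away. For *Hoxa10* both the level per kb and the distance rest on 1 model of 1436 exon bases. Its other RefSeq mRNA, at 17.4 CPM, was not used for either.

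**Figure D3:**
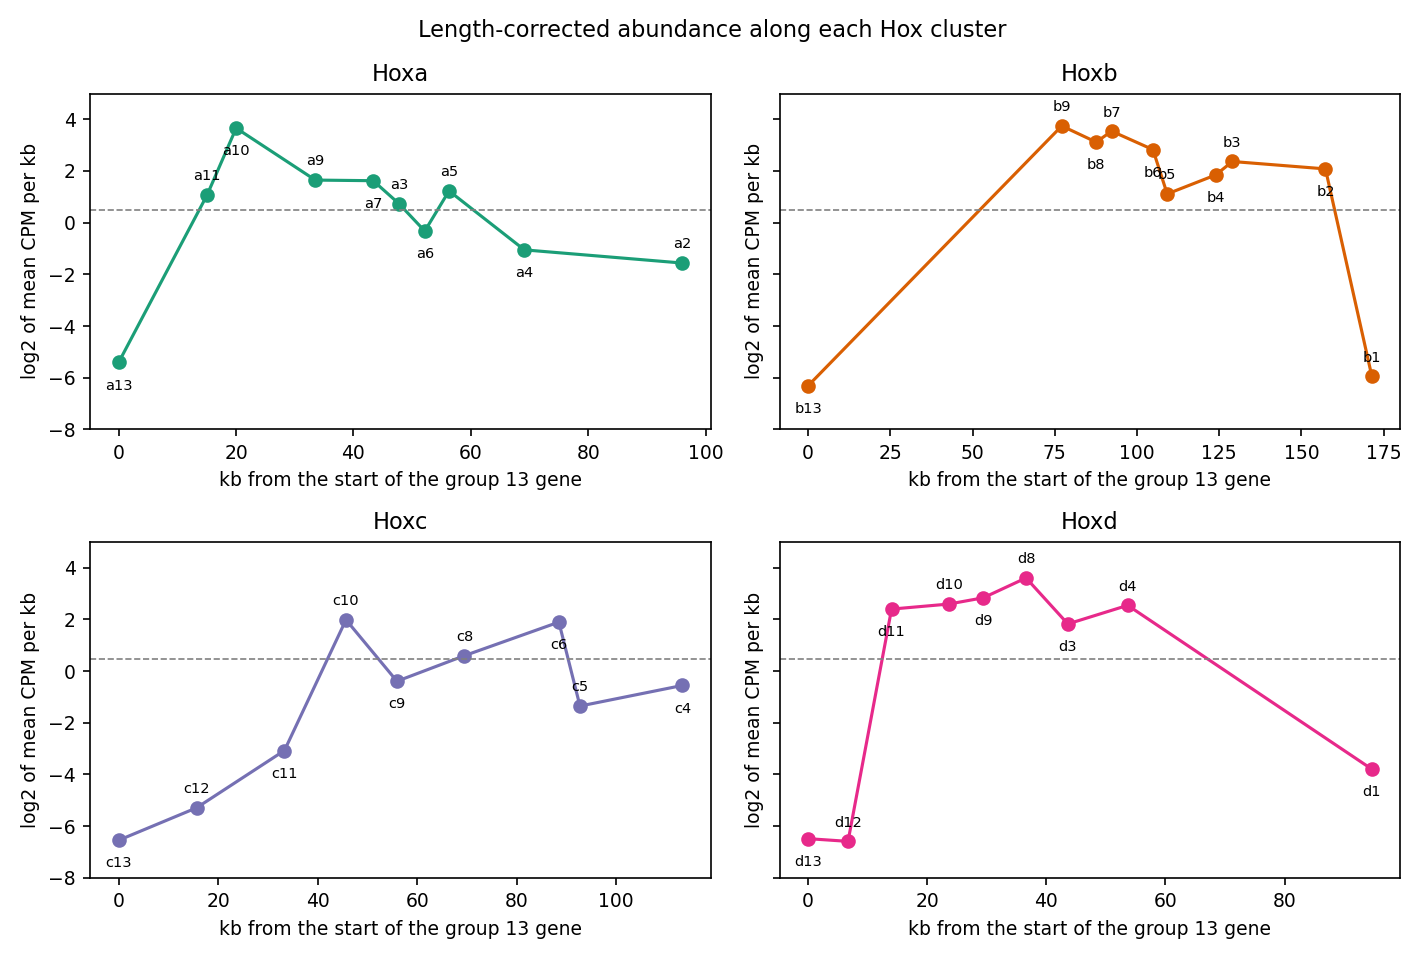
Length-corrected abundance (vertical axis, log2 of mean CPM per kb of the RefSeq mRNA) against the distance of each gene's start from that of the group 13 gene of its cluster (horizontal axis, kb), with 1 panel for each cluster and the group number beside each point. The dashed line is the median of all genes. Each cluster is lowest in groups 12 and 13, at its left end, and *Hoxb* and *Hoxd* fall again at the right end, at *Hoxb1* and *Hoxd1*.

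The transcripts listed for a gene were a further source of spread. The 82 transcripts are 41 RefSeq mRNAs, 1 RefSeq non-coding transcript and 40 that the authors assembled from the reads. For 18 genes more than 1 transcript was listed, and for 15 genes an assembled transcript was the most abundant. In 7 genes the highest transcript exceeded the RefSeq mRNA by more than 1.5-fold. The excess was 10.2-fold for *Hoxb5*, 6.15-fold for *Hoxa6*, 2.26-fold for *Hoxa7* and 2.07-fold for *Hoxa9*. It was 1.81-fold for *Hoxd4*, 1.65-fold for *Hoxd11* and 1.54-fold for *Hoxb3*. In the other direction, the assembled transcript of *Hoxc11* held 0.0849 CPM and its RefSeq mRNA 0.240 CPM. *Hoxa10* and *Hoxd8* varied little, with ranges of 17.0 to 18.2 CPM over 4 transcripts and 32.1 to 40.4 CPM over 5.

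**Figure D4:**
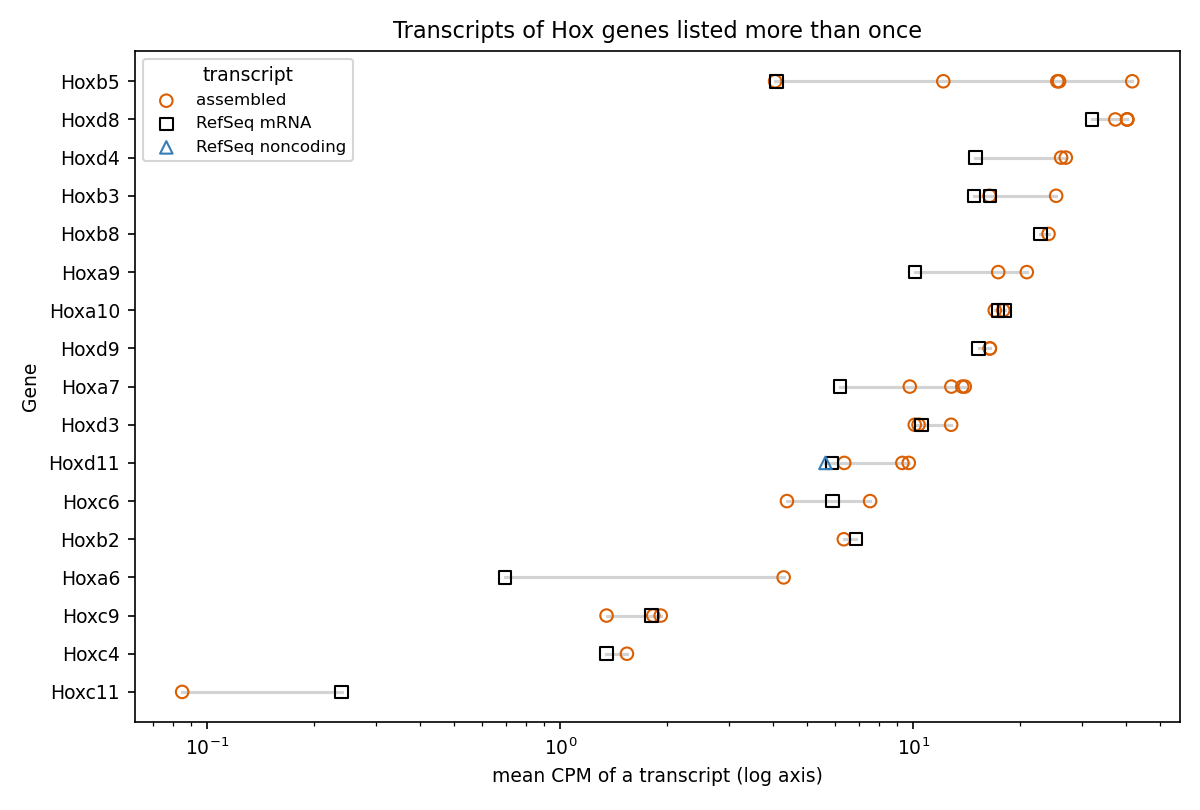
Mean CPM (horizontal axis, log scale) of the transcripts of *Hox* genes (vertical axis) listed more than once, with circles for transcripts assembled from the reads, squares for RefSeq mRNAs and a triangle for a RefSeq non-coding transcript. *Hoxb5* spreads from 4.06 to 41.7 CPM and *Hoxa6* from 0.698 to 4.29 CPM, while the transcripts of *Hoxa10* nearly coincide.

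Several assembled loci held transcripts of more than 1 *Hox* gene. The assembled transcripts of *Hoxb3* and the most abundant ones of *Hoxb5* came from 1 assembled locus, although *Hoxb4* lies between these genes. An assembled transcript of *Hoxb5* at 4.06 CPM came from another locus. Those of *Hoxd3* and *Hoxd4* shared 1 locus, as did those of *Hoxa9* and *Hoxa10*. In the GENCODE annotation 7 of the 39 RefSeq mRNAs share exon bases with another gene on the same strand and 9 with a gene on the opposite strand, and 25 share none. The overlap was largest for *Hoxd3*, of whose exon bases 88.0% also belong to *Hoxd4* or *Gm28230*, and for *Hoxb3*, of whose exon bases 70.5% lie opposite *Hoxb3os*. The libraries were strand-specific, but whether strand was used in counting is not given in the sources used here. Levels of these genes are therefore uncertain.

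Partners of the HOX proteins were also present. Of 9 genes for the PBX, MEIS and PREP (*Pknox*) homeodomain proteins, which bind DNA together with HOX proteins, 8 had at least 1 CPM. At least 1 CPM per kb was reached by 7 of them. The shares over all genes were 55.9% in CPM and 54.0% per kb. *Meis2* had 6.95 CPM per kb, while *Pbx4* was lowest at 0.333. All 17 genes of Trithorax and Polycomb complexes, which keep *Hox* genes active or silent, had at least 1 CPM. Per kb, 15 of them reached 1 CPM, and the range was from 0.425 for *Cbx8* to 11.5 for *Cbx6*. Among them *Kmt2a*, listed under its older symbol *Mll1*, had 3.09 and *Ezh2*, the Polycomb methyltransferase, 3.66 CPM per kb. The 3 *Cdx* genes, which activate *Hox* genes in the early embryo, were all under 0.04 CPM, with *Cdx2* on the lowest value of the table.

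Of 12 genes of the nephron progenitor and the early kidney, 5 had at least 1 CPM. These were *Pax8* at 52.7, *Sall1* at 36.4, *Pax2* at 22.6, *Lhx1* at 8.65 and *Wt1* at 6.97 CPM. The progenitor genes *Six2* and *Gdnf*, which act downstream of the group 11 genes in the embryo, were at 0.0860 and 0.1402 CPM, and *Eya1* at 0.296 CPM. *Hoxa11* and *Hoxd11* were thus measured at 4.80 and 9.71 CPM in kidneys in which these 3 genes were each under 1 CPM.

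**Figure D5:**
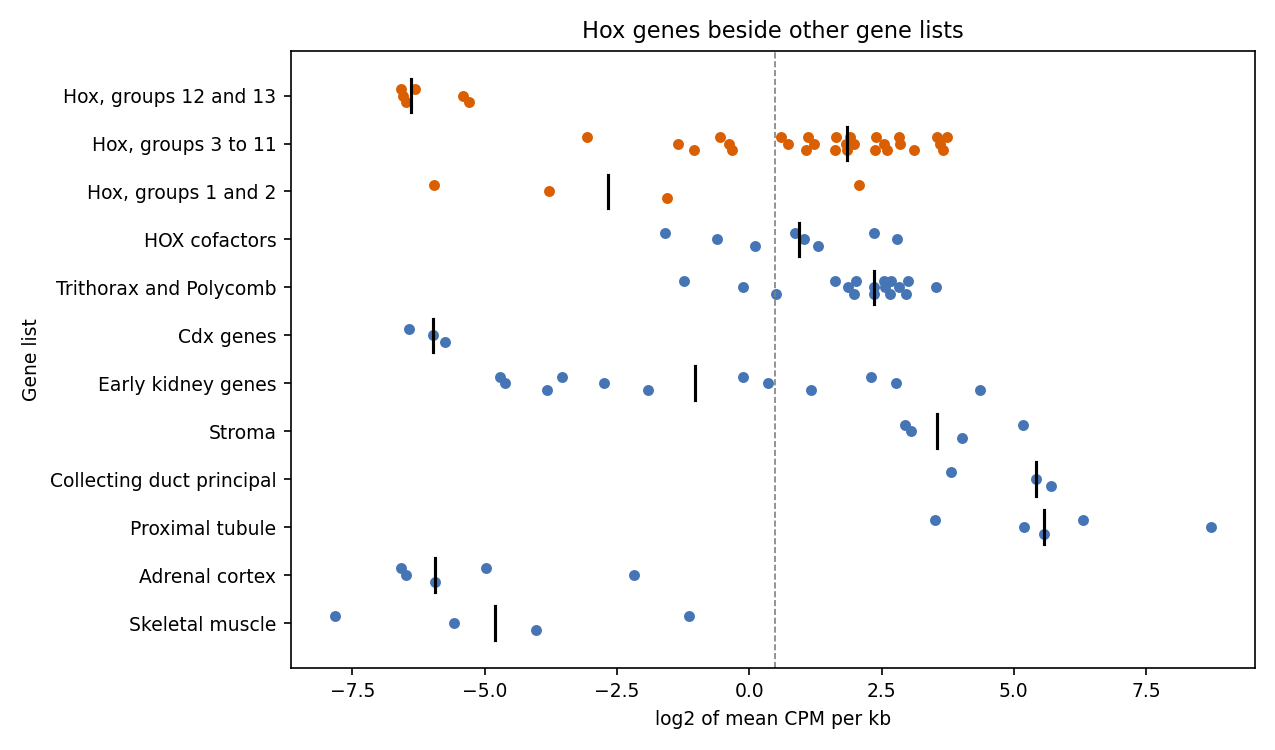
Length-corrected abundance (horizontal axis, log2 of mean CPM per kb) of *Hox* genes split by paralog group (orange) and of other gene lists (blue), with 1 point for each gene shown and a bar at the median of these points. The dashed line is the median of all genes. Groups 3 to 11 have a median of 3.58 CPM per kb, beside 5.13 for Trithorax and Polycomb genes and 47.5 for proximal tubule markers.

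Markers of the labelled tissue were present. The 5 proximal tubule markers ranged from 11.4 CPM per kb for *Cubn* to 423 for *Slc34a1*, and markers of the thick ascending limb, distal convoluted tubule, collecting duct, podocytes, stroma, endothelium and macrophages all had at least 1 CPM. Among tissues next to the kidney, the 5 adrenal cortex markers and the 4 skeletal muscle markers were all under 1 CPM, with *Cyp11b2* and *Myh4* on the lowest value. The 3 urothelium markers ranged from 3.12 to 5.65 CPM per kb, the 3 ureter smooth muscle markers from 1.89 to 3.17 and the 3 adipocyte markers from 1.12 to 4.51. The 4 liver markers ranged from 1.35 to 15.3 CPM per kb. The part of urothelium, ureter and fat in the *Hox* levels was not tested.

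The clusters also hold microRNA (miRNA) genes. Their mature sequences are shown because, among the seeds searched below, the match to miR-196 was found in the most *Hox* 3′-UTRs, 8 of 39. Sequences are from RefSeq (GRCm38.p6), written 5′ to 3′ with the seed, bases 2 to 8, in capitals. The miR-10 genes lie in the *Hoxb* and *Hoxd* clusters and the miR-196 genes in *Hoxa*, *Hoxb* and *Hoxc*. The last line is miR-17 of the cluster that DKO mice carry as floxed alleles.
mmu-miR-10a-5p: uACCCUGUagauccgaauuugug
mmu-miR-10b-5p: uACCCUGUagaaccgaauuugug
mmu-miR-196a-5p: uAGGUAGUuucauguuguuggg
mmu-miR-196b-5p: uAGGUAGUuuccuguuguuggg
mmu-miR-17-5p: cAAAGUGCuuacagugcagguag

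The 3′-UTR of each gene, from the GENCODE M21 model of its RefSeq mRNA, was searched on its sense strand for the DNA letters that pair with each seed. Median lengths were similar, at 878 bases over 39 *Hox* genes and 785 over 18921 genes. Some *Hox* models leave little room for a match, with 30 bases for *Hoxd11*, 51 for *Hoxa13*, 77 for *Hoxa6* and 92 for *Hoxc12*. These genes count in the shares below. The miR-196 match, ACTACCT, was present in 8 *Hox* genes (20.5%), beside 5.31% of all genes. It occurred 3.35 times in 10 kb of *Hox* 3′-UTR and 0.454 times in 10 kb over all genes. The 8 genes were *Hoxa4*, *Hoxa5*, *Hoxa7*, *Hoxa9*, *Hoxb1*, *Hoxb6*, *Hoxb7* and *Hoxc8*, of which 6 had at least 1 CPM. *Hoxa7* held 4 matches and *Hoxc8* held 2. The miR-10 match, ACAGGGT, was present in 4 *Hox* genes (10.3%), beside 11.2% of all genes. That of miR-615-3p, GGCTCGG, was present in *Hoxb4* alone (2.56%), beside 2.19% of all genes.

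*Hoxb8* has no complete miR-196 seed match but holds the most extensive pairing. In an ungapped search for the 22 bases of miR-196a, its 3′-UTR matched at 21 of 22 positions, and of 18785 genes it was the only one with so many. Among *Hox* genes the next was *Hoxd8* with 15, and the median of all genes was 12. The site lies at positions 418 to 439 of a 3′-UTR of 845 bases, at chr11:96284888-96284909 on the plus strand of mm10. It is shown beside the best paired of the 4 seed matches of *Hoxa7*, at chr6:52215210-52215231 on the minus strand, which pairs at 14 positions. Capitals mark bases that pair with miR-196a, counting Watson-Crick pairs alone.
Hoxb8: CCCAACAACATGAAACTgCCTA
Hoxa7: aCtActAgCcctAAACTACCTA

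By its most abundant transcript, an assembled one for both genes, *Hoxb8* was at 24.2 CPM and *Hoxa7* at 13.99 CPM. The RefSeq mRNAs whose 3′-UTRs were searched had 22.9 CPM (8.69 CPM per kb) and 6.19 CPM (3.08 CPM per kb). An effect of miR-196 on these levels was not tested. Matches to the seeds of the miR-17∼92 cluster differed between the seeds. That of miR-17 and miR-20a, GCACTTT, was present in 2 *Hox* genes (5.13%), beside 11.02% of all genes. That of miR-18a, GCACCTT, was found in none of the 39 *Hox* genes and in 7.22% of all genes. That of miR-19, TTTGCAC, was present in *Hoxa5*, *Hoxa9*, *Hoxb1* and *Hoxc13* (10.3%), beside 10.05% of all genes. That of miR-92a, GTGCAAT, was present in *Hoxb8*, *Hoxc11* and *Hoxd8* (7.69%), beside 5.98% of all genes. These matches are letters in a sequence, and binding or an effect on these genes was not measured here.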

How the data were processed

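Total RNA of 6 kidneys, 3 SKO and 3 DKO, was read from 1 end over 51 bp. Trimmed reads were aligned by the authors to mm10 (TopHat 2.0.12, iGenomes annotation) and kept at a mapping quality of 10 or more. The submitters' processing notes also name Cufflinks, featureCounts (Subread 1.4.6) and edgeR 3.2.4. The deposited log2 values are the authors' mean abundance of each transcript over all libraries, on the log2 CPM scale, with no value for a single kidney. Taken out of the log2 scale they sum to 1007270 over all 54721 transcripts, so the totals behind them are sums over transcripts. The table's other columns hold the authors' comparison of DKO with SKO (fold change, likelihood ratio, p-value and adjusted p-value) and were not used. The planned quasi-likelihood test needs counts for each kidney and was not run. Library depth is unknown, which leaves intervals out, and replicate numbers follow accession order.

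The most abundant transcript stood for a gene. For CPM per kb, the RefSeq mRNA with the highest mean CPM was divided by its exon length in GENCODE M21 (GRCm38, the assembly of mm10), matched by RefSeq identifier for all 39 *Hox* genes and for 20167 genes in all. These lengths may differ from those of the authors' annotation. At the same CPM a shorter model gives a higher value per kb, as with the short models of *Hoxd11* and *Hoxa6*. Members and gene lists were chosen with earlier results of these data known. The text gives values for every *Hox* gene past 1 CPM, for the ends of each cluster and for group 11, apart from genes not reported here, which count in totals but are not drawn. *Hoxb8* and *Hoxa7* as miR-196 examples, and the search for extended pairing, were chosen after their values were seen. Scripts (Python 3.11.15, numpy 2.4.6, pandas 2.3.3) were tested on simulated data. Alternatives were other ways to represent a gene, length correction and other thresholds.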

Additional observations from a re-analysis of the deposited data

How the results depend on the processing

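The number of *Hox* genes at or above 1 CPM, 27, lay between 23 and 29 under the 6 alternatives run for it. The lowest, 23, was the count at 1 CPM per kb, which is 59.0% beside 54.0% of all genes. The median over all *Hox* genes, 2.26 on the log2 CPM scale, was 2.14 with RefSeq mRNAs, 2.79 with all transcripts of a gene summed, and 1.11 on the log2 scale of CPM per kb. With RefSeq mRNAs the shares of the summed *Hox* CPM were 18.01% for *Hoxa*, 42.4% for *Hoxb*, 7.47% for *Hoxc* and 32.2% for *Hoxd*, and 3.45%, 20.7%, 22.1%, 13.1% and 3.90% for groups 5, 8, 9, 10 and 11. With the median over a gene's transcripts they were 19.8%, 40.4%, 6.32% and 33.5% for the clusters in the same order, and 7.37%, 20.1%, 21.2%, 10.9% and 3.42% for these groups. With all transcripts summed they were 20.7%, 33.2%, 4.17% and 42.0% for the clusters, and 12.5%, 25.3%, 14.5%, 9.38% and 4.43% for the groups. Per kb they were 19.9%, 41.7%, 8.35% and 30.0% for the clusters, and 3.65%, 16.7%, 18.2%, 16.9% and 5.59% for the groups. The sum may count a read more than once where transcripts overlap. Summing put *Hoxd* above *Hoxb*, and the use of RefSeq mRNAs lowered group 5, whose most abundant transcript, of *Hoxb5*, is an assembled one. Shares per kb also use the RefSeq mRNAs, so both choices change together there.

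Leaving out a replicate was not run, because it needs values for single kidneys. No paired analysis was possible because the table gives 1 mean over all kidneys and the replicate numbers only name samples.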

Other observations

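The non-coding genes of the *Hox* clusters were mostly near the lowest value of the table. Of 10 such genes, 8 were listed and 2 of these, *Mir10a* and *Hoxa11as*, had at least 1 CPM. *Mir10a* was represented by an assembled transcript at 5.48 CPM, while its RefSeq hairpin was at 0.0583 CPM. *Mir10b*, in the *Hoxd* cluster, was at 0.0410 CPM. *Mir196a-1*, *Mir196b* and *Mir196a-2* were at 0.573, 0.0496 and 0.0263 CPM, the last of these being the lowest value, where *Mir615* also lay. Libraries of total RNA of this kind do not measure mature miRNAs. *Hoxa11as*, antisense to *Hoxa11*, was at 1.498 CPM and *Hotair*, a long non-coding RNA of the *Hoxc* cluster, at 0.0748 CPM.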
